A study of Homo sapiens with 12 samples.

Results

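The signal recognition particle RNA, 7SL, was followed over every annotated copy of its sequence that had reads. Members were all elements that the repeat annotation names 7SLRNA (class srpRNA), on either read strand. There were 745 such elements among the 2321299 repeat elements listed in at least 1 library, of which 533 had reads on their own strand (sense), 212 had antisense reads only and 197 had both. The samples were A375 cells, an established human melanoma line, transiently transfected with a V5-tagged protein. The control was Clover, a fluorescent protein. Full-length ZC3H18 (Z18fl) is a nuclear zinc finger protein that joins the RNA cap-binding complex to RNA surveillance complexes. Z18trunc is a truncated ZC3H18, and Z18truncZnFmut is that truncated protein with aromatic residues of its zinc finger mutated. From 24 h after transfection the cells were labelled with 4-thiouridine (4sU), crosslinked by ultraviolet light and subjected to anti-V5 immunoprecipitation, and the recovered RNA was depleted of ribosomal RNA and sequenced as stranded libraries (PAR-CLIP). Each construct had 3 libraries, 12 in all. The tag is carried by a transfected protein, so endogenous ZC3H18 was not what was pulled down, and unprecipitated RNA of these cells was not analysed here. The tables hold counts on repeat elements alone, so markers of melanoma cells and ZC3H18 itself were not analysed here. A library is a pool of cells, in which fewer cells bearing an RNA and less of it per cell cannot be told apart.

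7SL RNA is the scaffold of the signal recognition particle, the complex of RNA and proteins that recognises signal peptides as they leave the ribosome and takes the ribosome to the endoplasmic reticulum. It is made by RNA polymerase III, from a promoter with parts both upstream of and inside the gene, and transcription ends in a run of T. The human genome holds a few 7SL genes and many copies that came from the RNA by reverse transcription. The Alu elements, the most abundant short repeats of primates, also descend from 7SL, which makes it both a housekeeping RNA and the parent of a repeat family.

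The 3 genes RN7SL1, RN7SL2 and RN7SL3 lie on chromosome 14 (hg38). Reads from them can be told apart at few positions. RN7SL1 (chr14:49586580-49586879, plus strand) lies in an intron of RPS29, a ribosomal protein gene, on the opposite strand. RN7SL3 (chr14:49853615-49853914, minus strand) lies between genes, 266735 bases further on, and RN7SL2 (chr14:49862550-49862849, minus strand) follows 8635 bases after it, in an exon of a long noncoding RNA. Each element is 300 bases long. RN7SL2 differed from RN7SL1 by 4 substitutions (98.7% identity) and RN7SL3 by 7 (97.7% identity). The longest stretch without a difference was 205 bases between RN7SL1 and RN7SL2 and 123 bases between RN7SL1 and RN7SL3. RN7SL2 and RN7SL3 differed from each other at 11 positions.

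The 100 bases upstream of the genes are shown because the external part of a 7SL promoter is known to hold a site for ATF/CREB factors, which bind TGACGTCA. Capitals mark TGACGTCA or its variant TGACGTNA, where N is any base.
RN7SL1 upstream (chr14:49586480-49586579): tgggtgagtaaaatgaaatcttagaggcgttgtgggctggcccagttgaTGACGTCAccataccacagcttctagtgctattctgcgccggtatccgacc
RN7SL2 upstream (chr14:49862850-49862949): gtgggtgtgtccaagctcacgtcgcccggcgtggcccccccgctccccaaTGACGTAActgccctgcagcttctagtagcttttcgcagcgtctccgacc
RN7SL3 upstream (chr14:49853915-49854014): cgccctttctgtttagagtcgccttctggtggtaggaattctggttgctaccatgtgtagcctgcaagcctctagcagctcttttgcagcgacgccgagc
Searched on both strands, TGACGTCA stood in the 100 bases before 1 of the 745 members, RN7SL1, from 51 to 44 bases before the element. The same letters stood in the 100 bases before the start of 411 of 35116 RefSeq genes of GRCh38 (1.17%). The variant, added after the sequences were seen, was present upstream of 2 members, RN7SL1 and RN7SL2 (from 50 to 43 bases before it), and of 612 RefSeq genes (1.74%). A run of TTTT within 30 bases after the element, on its strand, was present in 2 of the 10 most abundant copies and in 162 of the other 735 (22.0%). With the last 4 bases of the element added to that window, also after the sequences were seen, it was present in 4 of the 10, RN7SL1, RN7SL2, RN7SL3 and RN7SL471P, and in 167 of the others (22.7%). These matches are descriptions of the letters, and no binding was measured.

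Counts on 7SL came almost entirely from the 3 genes. Levels are total counts per 1000000 aligned fragments of the library (CPM), where the total is the uniquely mapping reads plus the share of multimapping reads that SQuIRE, the repeat-counting program, gave to an element. Averaged over the 12 libraries, RN7SL1 stood at 7124 CPM, RN7SL2 at 5429 and RN7SL3 at 1263, together 99.1% of all sense counts on 7SL. The copies ranked 4 and 5 held 0.719%, those ranked 6 to 10 held 0.0493%, and all remaining copies together 0.133%, or 18.6 CPM. The 10th copy had a mean of 0.834 CPM and the 11th 0.632, so the top 10 were not set off from the rest by a gap. 524 of the 533 copies with sense reads averaged under 1 CPM. Only 29 copies had sense reads in all 12 libraries, and 225 in a single library.

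The copies ranked 4 and 5, both named as pseudogenes, differ in how well their reads can be placed. RN7SL5P (chr9:9442060-9442294, plus strand), which lies opposite to the receptor phosphatase gene PTPRD, is 235 bases long and differs from RN7SL1 by 1 substitution. Its mean was 44.3 CPM in total counts against 0.331 CPM in unique counts, and 0.159% to 2.25% of its reads were unique in a library. Its counts are thus shared with RN7SL1 and its level is uncertain. RN7SL471P (chr6:28977475-28977773, plus strand), between genes, differs at 59 of 292 aligned bases with 15 gap bases (79.8% identity), and 58.0% to 69.3% of its counts were unique (means of 55.9 CPM in total and 35.2 CPM in unique counts). Among the genes the unique share was 57.3% to 63.6% for RN7SL1, 43.4% to 67.4% for RN7SL2 and 78.9% to 84.0% for RN7SL3.

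Ranks 6 to 10 were held by copies inside other genes. They were RN7SL146P in an intron of CHERP (1.95 CPM), a copy on chromosome 15 named Metazoa_SRP (chr15:62244321-62244521) in an intron of a transcribed pseudogene (1.66), RN7SL650P in an exon of the chromatin remodeller gene CHD8 (1.40), RN7SL657P in an exon of the mitochondrial ribosomal protein gene MRPL20 (1.03) and RN7SL731P in an exon of the kinesin gene KIF1B (0.834). Of the 745 members, 31 lay in an exon of another gene on the same strand, 358 in an intron of a gene on the same strand, 158 opposite to a gene and 198 between genes, and 460 had a 7SL gene name of their own in GENCODE release 44. Sense reads on a copy in such an exon or intron can come from the transcript of the host gene, and the counts do not tell these sources apart. Divergence from the 7SL consensus, as the repeat annotation gives it, had a median of 16.7% over all members (range 0.3% to 41.5%) and of 14.2% over the 10 top copies. 7 members diverged by under 5%, and 4 of these were in the top 10: RN7SL1 (1.0%), RN7SL2 (0.3%), RN7SL3 (3.3%) and RN7SL5P (1.3%). RN7SL471P (21.4%) and RN7SL146P (19.9%) were in the top 10 with high divergence.

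**Figure D1:**
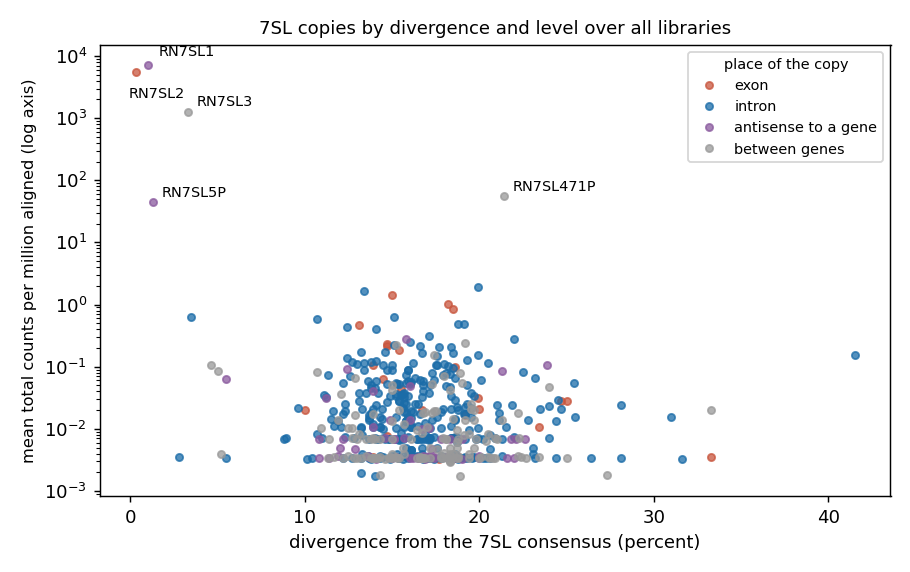
Each point is 1 of the 533 copies with sense reads. The horizontal axis gives its divergence from the 7SL consensus in percent, the vertical axis its mean total count in CPM over the 12 libraries on a log axis, and the colour where it lies relative to other genes. The 3 genes stand at the left edge, at 1263 CPM and above, RN7SL5P and RN7SL471P follow at about 44.3 and 55.9, and all the others stay under 2.

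The libraries differed in depth and in how many copies they listed. Aligned fragments numbered 16683132 to 17673644 in the Clover libraries and 21285347 to 25686948 in the others. 129 to 145 members were listed per Clover library and 205 to 267 in the others, apart from Z18truncZnFmut library 3 with 404. That library listed 1742484 element and strand rows in all, against 297411 to 763126 in the other 11, and its values are marked where they decide a result. Sense counts on all repeats were also lowest in Clover (56489 to 62315 CPM) and stood higher in Z18fl (66773 to 73867), Z18trunc (72114 to 81477) and Z18truncZnFmut (76207 to 126400), so 7SL levels are given both per aligned fragment and relative to other repeats. All 3 comparisons with Clover use the same Clover libraries.

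Per aligned fragment, total 7SL counts did not separate the constructs. The sense level was 11075, 12426 and 13216 CPM in Clover, in rising order, with a mean of 12239 ± 1083 (SD, n = 3). It was 7763, 8409 and 12506 with Z18fl (9560 ± 2572), 8221, 13633 and 13831 with Z18trunc (11895 ± 3183) and 11954, 20706 and 33559 with Z18truncZnFmut (22073 ± 10867). 2 of the 3 Z18fl libraries lay under every Clover library and 2 of the 3 Z18truncZnFmut libraries above every Clover library, while the remaining library of each fell within the Clover range, as the plot of 7SL levels shows. In two-sided exact permutation tests of 3 libraries against 3 the p of Z18fl and of Z18truncZnFmut against Clover was 0.3 each and that of Z18trunc 1.0. An exact permutation test of this size cannot go below p = 0.1, so none of the 50 tests of 7SL levels and make-up could pass after adjustment, and the smallest adjusted p was 0.417. Unique counts overlapped as well, with 6895 ± 921 CPM in Clover, 5985 ± 1976 with Z18fl, 6981 ± 2070 with Z18trunc and 13450 ± 7946 with Z18truncZnFmut. Unique reads made up 56.2%, 62.0%, 58.3% and 59.3% of the 7SL sense counts on average in the same order.

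**Figure D2:**
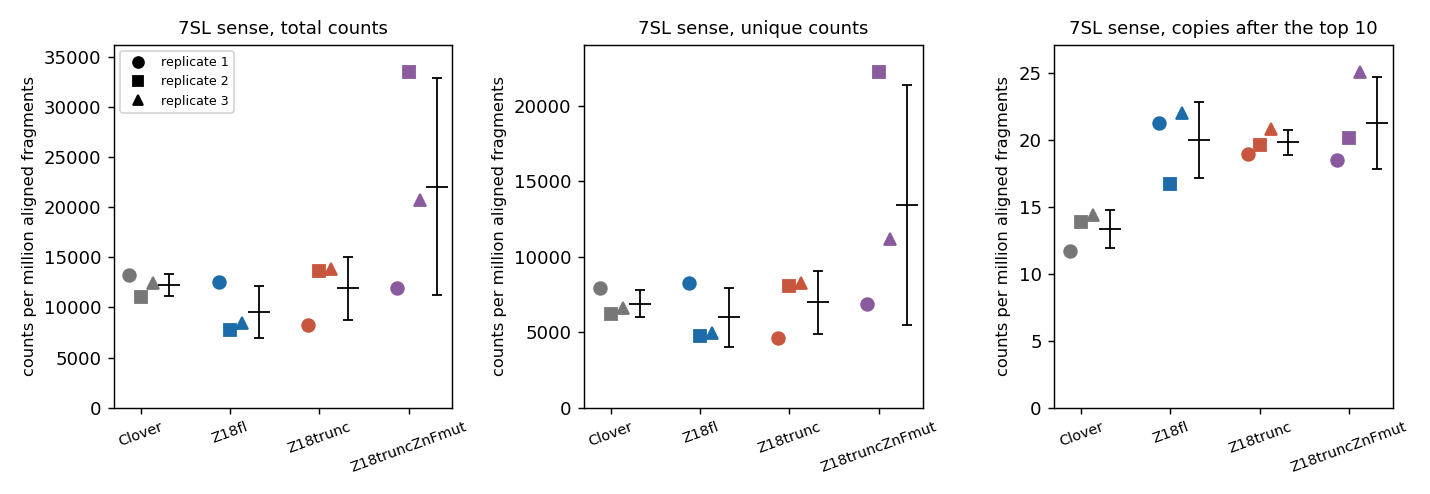
Counts on 7SL in each library, in CPM (per aligned fragments), by construct: total sense counts, unique sense counts, and total sense counts of the copies after the top 10. Markers give the replicate, and the bar and whiskers the mean and SD of 3 libraries. Total levels of the Z18truncZnFmut libraries spread from 11954 to 33559, while the low copies lie at 11.7 to 14.4 in Clover and at 16.7 to 25.1 in the other constructs.

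As a share of the counts on repeats, 7SL was lower with Z18fl and Z18trunc than with Clover. It made up 21.2%, 19.5% and 22.0% of the sense repeat counts in the Clover libraries, 16.9%, 11.6% and 11.5% with Z18fl, 11.4%, 17.3% and 17.0% in Z18trunc, and 15.7%, 33.4% and 16.4% with Z18truncZnFmut. No Z18fl or Z18trunc library reached the Clover range, whereas the Z18truncZnFmut libraries lay on both sides of it. The log2 ratio of 7SL to 7SK, another abundant RNA polymerase III transcript, was 1.32 ± 0.21 in Clover, 0.21 ± 0.31 with Z18fl, 0.67 ± 0.39 with Z18trunc and 0.88 ± 0.49 with Z18truncZnFmut (SD, n = 3). Z18fl and Z18trunc again did not overlap Clover (exact permutation p = 0.1 each). The level of 7SK itself differed, at 4292 to 5324 CPM in Clover against 7569 to 8408 with Z18fl, 6975 to 7872 with Z18trunc and 9075 to 12928 with Z18truncZnFmut. Against the Alu elements the log2 ratio was -0.50 ± 0.13 in Clover, -1.07 ± 0.33 with Z18fl, -0.89 ± 0.40 with Z18trunc and -0.20 ± 0.78 with Z18truncZnFmut, and only Z18fl did not overlap Clover.

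The summed 7SL counts were lower with Z18fl than with Clover. Counts were summed over copies for each repeat name and strand and fitted with edgeR across all names, with TMM scaling, which sets the bulk of the repeats level between libraries. The sense sum fell by 0.79 on the log2 scale (SE 0.12, edgeR adjusted p = 0.000217) and the antisense sum by 0.80 (SE 0.08, adjusted p = 4.18e-06). Of all 1897 repeat names and strands tested, 15.5% were higher and 15.8% lower. With aligned fragments as library sizes, where the median repeat name stood at 0.44, both sums still passed, at -0.36 each (adjusted p = 0.0216 for sense and 0.00199 for antisense). The sense levels per aligned fragment overlapped, however, with the first Z18fl library (12506 CPM) inside the Clover range of 11075 to 13216 CPM. In a single fit of all 12 libraries the sense value was -0.76 but did not pass (edgeR adjusted p = 0.267), and neither did the antisense value of -0.77 (adjusted p = 0.0971).

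Among single copies, RN7SL2 fell with Z18fl while RN7SL3 did not pass the test. RN7SL2 totals were 5515, 4884 and 5506 CPM in the Clover libraries and 4214, 2971 and 3345 in the Z18fl libraries, which did not overlap. Its log2 fold change was -0.78 (SE 0.10, edgeR adjusted p = 4.71e-05), and -0.60 with unique reads alone (adjusted p = 0.0014), where the libraries of both groups overlapped (2387 to 2993 against 1554 to 2744 CPM). RN7SL1 totals were 6662, 5369 and 5914 in Clover and 6853, 3913 and 4100 with Z18fl, so the first Z18fl library was above all of Clover and the other two below it. RN7SL1 fell by 0.45 (SE 0.16, edgeR adjusted p = 0.0273). This call was lost without the second or the third Z18fl library (-0.20, adjusted p = 0.329, and -0.22, adjusted p = 0.29) and with DESeq2 (-0.43, adjusted p = 0.236). RN7SL3 totals were 939, 727 and 891 in Clover and 1297, 787 and 853 with Z18fl, with a log2 fold change of 0.02 (SE 0.15, adjusted p = 0.934).

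17 member rows (a copy on 1 strand) had enough counts to be tested in this comparison. 2 rose, where 26.1% of all 18258 rows tested were higher, and 9 fell, where 20.2% were lower. Their median log2 fold change was -0.56, beside 0.04 over all rows. A low copy that reached the minimum count of 10 mainly in the libraries of 1 group was tested through that group and had to differ, so its call is a description, and so are these counts over the members tested. The Metazoa_SRP copy on chromosome 15 rose by a log2 fold change of 2.18 (SE 0.34, edgeR adjusted p = 0.000175), from 0.30, 1.05 and 0.453 CPM in Clover to 3.54, 2.88 and 3.0 in Z18fl. A 93-base copy in an intron of MLLT6 (chr17:38718389-38718481) rose by 2.15 (SE 0.47, adjusted p = 0.00191), from 0.0599, 0.351 and 0.339 CPM to 1.27, 1.44 and 1.21. Its total counts were 1, 6 and 6 in Clover, so it was tested through the Z18fl libraries alone. The Metazoa_SRP copy, at 5, 18 and 8 counts in Clover, also passed the filter through Z18fl. Both rises rested on few reads in Clover, 3 to 17 and 1 to 6 unique counts a library, against 57 to 66 and 24 to 27 in Z18fl.

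RN7SL674P, a 200-base copy in an intron of GREB1, fell by 2.91 (SE 0.61, edgeR adjusted p = 0.00159), from 0.651, 1.59 and 0.856 CPM to 0.0462, 0.0462 and 0.361. It is 97.5% identical to RN7SL1 and had 0 unique counts in all 6 libraries, so all its counts there were multimapping reads assigned by SQuIRE. With 1.07, 1.06 and 9.27 total counts in Z18fl it was tested through the Clover libraries alone, and its value ranged from -4.45 to -2.42 with 1 library left out. RN7SL454P, in an intron of the dynein gene DNAH17, fell by 1.44 (SE 0.42, adjusted p = 0.0122), from 1.14, 0.585 and 0.905 to 0.475, 0.262 and 0.35 CPM. Its total counts were 19, 10 and 16 in Clover and 11, 6 and 9 in the deeper Z18fl libraries. It too was therefore tested through the Clover libraries alone. RN7SL146P, in CHERP, fell by 1.29 (adjusted p = 0.00319), although its second Clover library (1.34) lay within the Z18fl range. RN7SL5P fell by 0.59 (adjusted p = 0.0392) with overlapping groups, a call lost without the third Clover library or the second or the third Z18fl library (adjusted p = 0.0835, 0.246 and 0.279). RN7SL657P (0.89, adjusted p = 0.0523) and RN7SL731P (-1.06, adjusted p = 0.054) did not pass. The calls of RN7SL2, of antisense RN7SL1, of RN7SL674P, RN7SL146P and of both copies that rose held without any 1 library. Without the second or the third Z18fl library the count of members that fell was 5 or 4, and RN7SL454P did not pass (adjusted p = 0.0768 and 0.0672). Without the second Clover library 4 members rose.

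**Figure D3:**
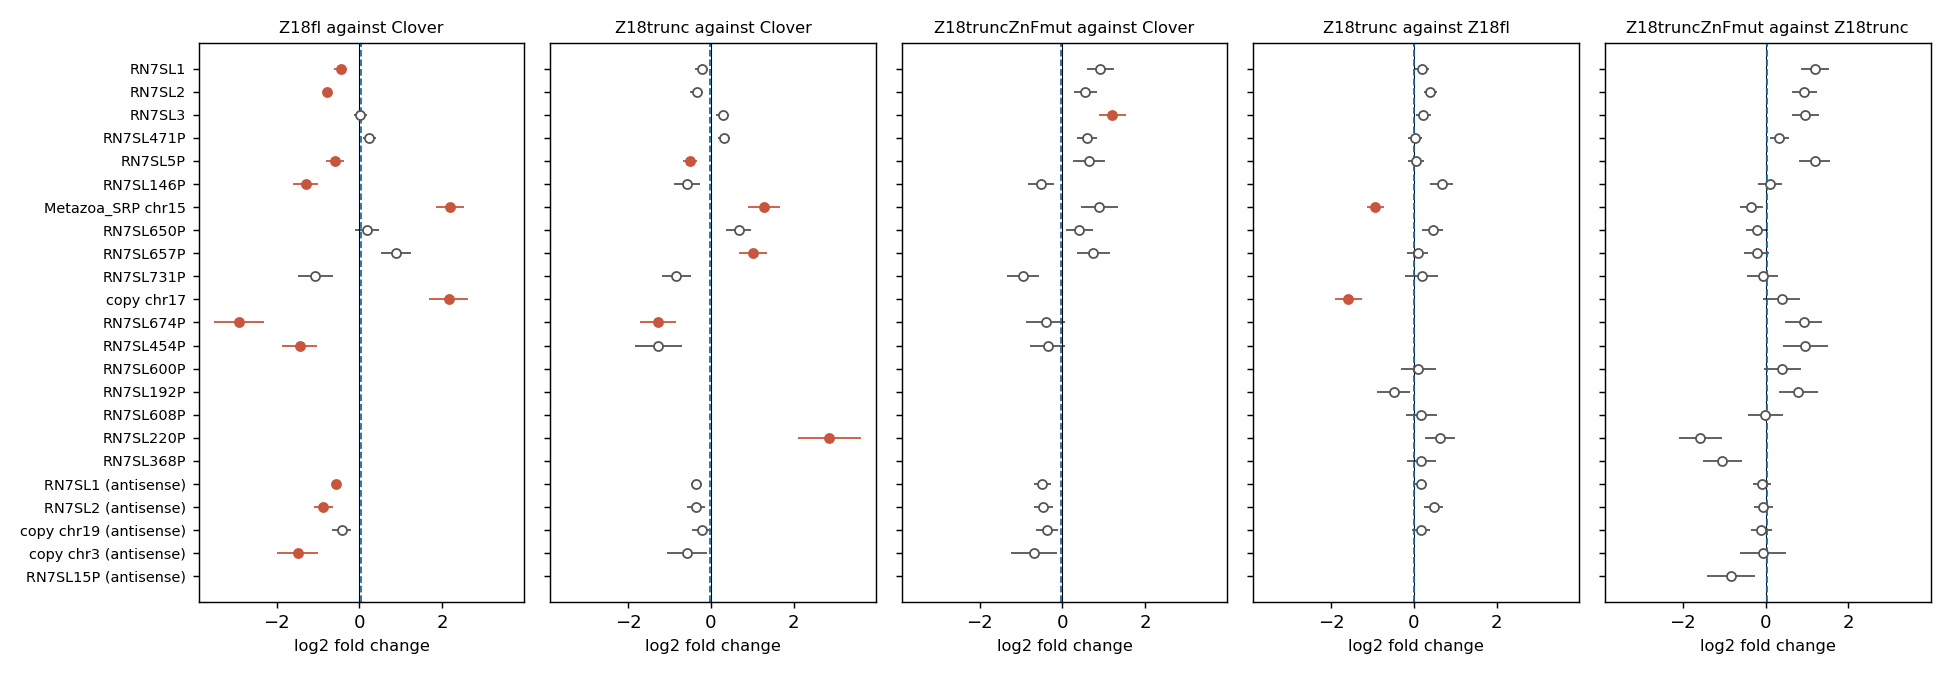
Log2 fold change (horizontal axis) with its standard error for each 7SL copy tested by edgeR, in the 5 comparisons. Filled points passed an adjusted p of 0.05, open points did not, and the dashed line is the median of all elements tested. With Z18fl against Clover 2 points are filled at the right and 9 at the left, while no copy is filled with Z18truncZnFmut against Z18trunc.

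7SL also fell with Z18trunc relative to other repeats. The sense sum fell by 0.49 (SE 0.13, edgeR adjusted p = 0.016) and the antisense sum by 0.58 (SE 0.10, adjusted p = 0.000962), where 10.0% of 1892 repeat names and strands were higher and 8.03% lower. With aligned fragments as library sizes the median repeat name stood at 0.48, and neither the sense sum (-0.04, adjusted p = 0.803) nor the antisense sum (-0.14, adjusted p = 0.273) passed. The sense call was also lost without the third Clover library (-0.47, adjusted p = 0.156), without the first Z18trunc library (-0.37, adjusted p = 0.0782) and in the fit of all 12 libraries (-0.50, adjusted p = 0.557).

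None of the 3 genes passed the test with Z18trunc. RN7SL1 totals were 4000.5, 6745 and 6707 CPM (log2 fold change -0.23, edgeR adjusted p = 0.299), RN7SL2 totals 3226, 5460 and 5635 (-0.34, adjusted p = 0.125) and RN7SL3 totals 875, 1304 and 1369 (0.29, adjusted p = 0.182). The first Z18trunc library was the lowest for each gene. Of 17 member rows tested 3 rose, where 19.3% of 18359 rows were higher, and 2 fell, where 8.73% were lower. Their median was -0.34, beside -0.01 over all rows. RN7SL220P, in an intron of the ubiquitin ligase gene HERC4, rose by 2.86 (SE 0.77, adjusted p = 0.0096), from 0, 0.292 and 0 CPM in Clover to 1.14, 0.62 and 0.803. Its total counts in Clover were 0, 5 and 0, so it was tested through the Z18trunc libraries alone and the size of the fitted change depends on the prior count. It could be tested in 4 of the 6 fits that left out 1 library, with values from 2.23 to 7.11. The chromosome 15 Metazoa_SRP copy rose by 1.29 (SE 0.39, adjusted p = 0.0184) to 1.64, 1.65 and 1.82 CPM, and RN7SL657P, in MRPL20, by 1.01 (SE 0.35, adjusted p = 0.0375) from 0.659, 0.526 and 0.509 to 1.56, 1.21 and 1.18. The Metazoa_SRP copy, at 5, 18 and 8 counts in Clover against 39, 40 and 43, passed the filter through Z18trunc, so its call is a description.

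The 2 copies that fell with Z18trunc, RN7SL674P (-1.27, edgeR adjusted p = 0.0383) and RN7SL5P (-0.50, adjusted p = 0.0327), both overlapped Clover, and in these 6 libraries they had 0 and 1 to 13 unique counts each, respectively. RN7SL674P, at 10.18, 16.05 and 8.9 total counts in Z18trunc against 10.86, 27.12 and 15.13 in Clover, passed the filter through Clover. Several of these calls were lost when 1 library was left out. RN7SL657P lost its call without any 1 of the 6 libraries (adjusted p from 0.0526 to 0.133). RN7SL674P and RN7SL5P lost theirs without any 1 Z18trunc library (adjusted p from 0.0533 to 0.189), and also without the second and the third Clover library, respectively (adjusted p = 0.197 and 0.135). The Metazoa_SRP copy lost it without the first or the third Clover library or the third Z18trunc library (adjusted p = 0.102, 0.0863 and 0.0584). Without the third Z18trunc library no member rose.

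Z18truncZnFmut had the highest mean 7SL level of the 4 constructs and the widest spread. RN7SL1 totals were 5803, 18989 and 10436 CPM, RN7SL2 totals 4933, 11120 and 8338 and RN7SL3 totals 1110, 3232 and 1768. The second library was the highest for all 3 genes. RN7SL3 rose against Clover by 1.20 (SE 0.32, edgeR adjusted p = 0.0235), with no overlap of the groups. RN7SL1 (0.92, SE 0.34, adjusted p = 0.101) and RN7SL2 (0.55, SE 0.28, adjusted p = 0.254) did not pass. RN7SL3 was the 1 member that rose of 16 rows tested, where 8.16% of 16106 rows were higher, and 0 fell, where 1.82% were lower. At an unadjusted p under 0.05, 3 members were higher and 2 lower in edgeR, and DESeq2 called 1 higher and 1 lower. The median of the members was 0.03, beside -0.03 over all rows.

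The rise of RN7SL3 lost its call without any 1 Clover library (adjusted p = 0.0698, 0.128 and 0.0854) and without the second Z18truncZnFmut library (0.71, edgeR adjusted p = 0.0726), but not without the third, which stood apart. Without the first Z18truncZnFmut library 5 members rose. The sense sum over copies stood at 0.18 (edgeR adjusted p = 0.88) and the antisense sum at -1.0 (adjusted p = 0.298), where 0.105% of 1912 repeat names and strands were higher and 0.00% lower. The sense value ranged from -0.61 without the second Z18truncZnFmut library to 0.57. The antisense sum passed without the third (-0.63, adjusted p = 3.66e-05). All these sums used TMM scaling. With aligned fragments as library sizes the median repeat name moved from 0.05 to 1.03. The median of the sense and antisense sums moved from -0.41 to 0.26, and neither sum passed. In CPM the mean sense level was 22073 against 12239 in Clover, and the mean antisense level 128 against 161.

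Between the forms of ZC3H18, few members differed. With Z18trunc against Z18fl 0 of 19 member rows rose, where 1.69% of 27973 rows were higher, and 2 fell, where 2.23% were lower. 2 members were higher at an unadjusted p under 0.05, and DESeq2 called 0 higher. The 2 that fell were the copies that rose with Z18fl against Clover, a comparison that uses the same Z18fl libraries: the MLLT6 copy fell by 1.58 (SE 0.32, edgeR adjusted p = 0.0111), at 0.379, 0.413 and 0.549 CPM in Z18trunc, and the Metazoa_SRP copy by 0.93 (SE 0.20, adjusted p = 0.0152). Neither group overlapped the other at these copies. The MLLT6 copy, at 9, 10 and 13 total counts in Z18trunc against 29.31, 33 and 31 in Z18fl, passed the filter through Z18fl, so its call is a description. The MLLT6 call was lost without the second Z18fl library or the first Z18trunc library (adjusted p = 0.0533 and 0.0637), and the Metazoa_SRP call without the first Z18fl or the first or second Z18trunc library (adjusted p = 0.0848, 0.0855 and 0.0681). The sense sum stood at 0.25 (adjusted p = 0.569) and the antisense sum at 0.18 (adjusted p = 0.429), where 0.153% of 1963 repeat names and strands were higher and 1.07% lower.

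With Z18truncZnFmut against Z18trunc 0 of 23 member rows rose and 0 fell in edgeR, where 0.121% and 0.0643% of 24884 rows did. At an unadjusted p under 0.05, 4 members were higher and 2 lower, and DESeq2 called 0 in either direction. With unique reads alone 3 rose. RN7SL1 stood at a log2 fold change of 1.19 (SE 0.35, edgeR adjusted p = 0.152), RN7SL2 at 0.94 (SE 0.30, adjusted p = 0.192) and RN7SL3 at 0.96 (SE 0.33, adjusted p = 0.214). The groups overlapped for each gene, and without the first Z18truncZnFmut library 4 members rose. The sense sum stood at 0.70 (adjusted p = 0.922) and the antisense sum at -0.39 (adjusted p = 0.922), and of 1982 repeat names and strands 0.00% were higher and 0.00% lower. Without the second Z18truncZnFmut library the sense sum was -0.06. In this pair the libraries of the same replicate number deviated together, but replicates 1 and 2 also did so crosswise. With the replicate number as a block the sense sum was 0.48 (edgeR adjusted p = 0.677) and again 0 members passed in either direction.

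The share of RN7SL3 among the 3 genes did not overlap between Clover and the other constructs. These shares were examined after the values had been seen and are given without a test. Of the unique reads on the 3 genes, RN7SL3 held 9.96%, 9.35% and 10.9% in the Clover libraries. It held 13.3%, 14.1% and 14.3% with Z18fl, 15.2%, 13.4% and 13.7% with Z18trunc and 13.2%, 12.2% and 12.8% with Z18truncZnFmut. Every library of the ZC3H18 constructs lay above every Clover library, and with total counts the same held (6.62% to 7.24% in Clover, 8.61% to 10.8% in the others). The paper takes T-to-C changes in reads as marks of crosslinking. Several of the positions that tell the genes apart are T in 1 gene and C in another, while others are not. Whether such changes moved reads between the genes was not tested. RN7SL2 held 37.9%, 38.9% and 36.5% of the unique reads in Clover and 33.3% to 34.1% with Z18fl, 34.3% to 37.1% with Z18trunc and 33.3% to 36.5% with Z18truncZnFmut. RN7SL1 held 51.8% to 52.5% in Clover and 49.3% to 54.0% in the others, on both sides. The unique counts behind the RN7SL3 share were 9820 to 13112 a library in Clover and 15083 to 57806 in the others. RN7SL471P, relative to the unique reads on the 3 genes, stood at 0.327% to 0.387% in Clover, 0.578% to 0.793% with Z18fl, 0.444% to 0.741% with Z18trunc and 0.262% to 0.519% with Z18truncZnFmut, and its own level was 41.7 ± 1.65, 56.2 ± 12.7, 59.1 ± 4.88 and 66.6 ± 19.4 CPM (SD, n = 3). None of its 3 comparisons with Clover passed in edgeR (adjusted p = 0.238, 0.114 and 0.138).

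**Figure D4:**
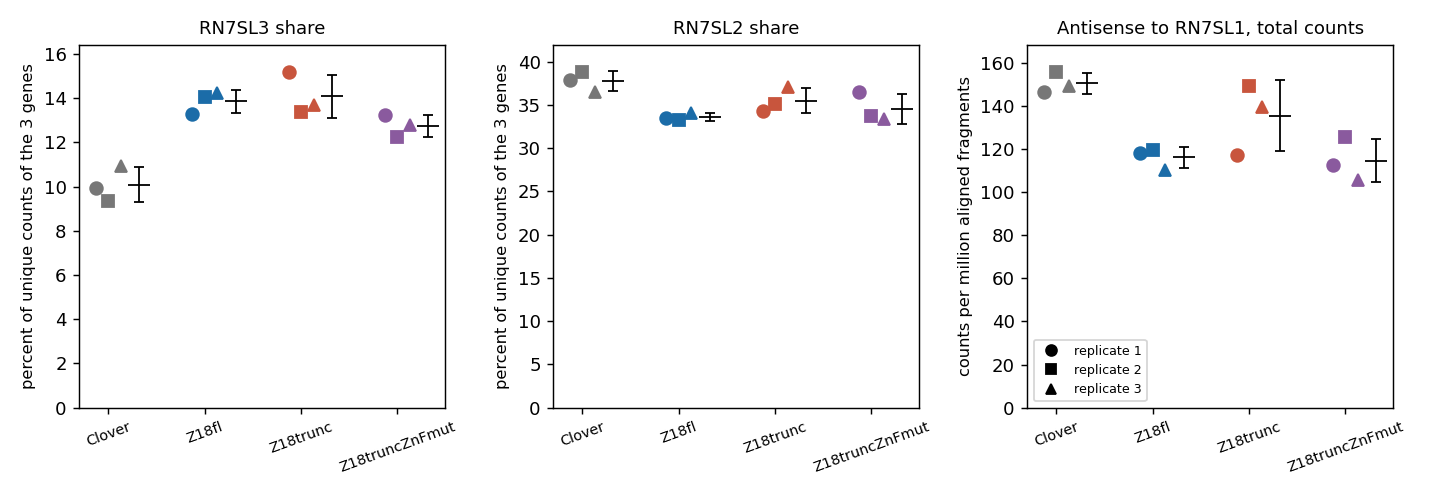
Share of RN7SL3 and of RN7SL2 in the unique reads on RN7SL1, RN7SL2 and RN7SL3, in percent, and the level of reads antisense to RN7SL1 in CPM, in each library by construct. Markers give the replicate, and the bar and whiskers the mean and SD of 3 libraries. The RN7SL3 share is 9.35% to 10.9% in Clover and 12.2% to 15.2% elsewhere, and antisense reads are 147 to 156 CPM in Clover and 106 to 149 elsewhere.

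The outermost sense reads of the 3 genes reached past the element by distances that overlapped between genes. The stretch that the sense reads of a library covered ran 3 to 26 bases beyond the 3′ end of RN7SL1, 6 to 69 beyond that of RN7SL2 (median 65.5) and 14 to 73 beyond that of RN7SL3 (median 52.5). At the 5′ end it began 2 to 57, 3 to 10 and 0 to 7 bases before the element. For RN7SL5P the covered stretch ended 1 to 11 bases past the element. The stretch is set by the outermost read and was not compared between constructs.

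Antisense reads were few, lay mainly on RN7SL1 and were lower with Z18fl. RN7SL1 held 92.0% of the antisense level, and all other members together 11.2 CPM. Reads antisense to RN7SL1, on the strand of RPS29, stood at 147, 156 and 149 CPM in Clover, 118, 120 and 110 with Z18fl, 117, 149 and 140 with Z18trunc and 112, 126 and 106 with Z18truncZnFmut. All Z18fl and Z18truncZnFmut libraries lay under all Clover libraries. The difference passed with Z18fl (log2 fold change -0.56, SE 0.13, edgeR adjusted p = 0.00245) but not with Z18trunc (-0.35, adjusted p = 0.0648) or Z18truncZnFmut (-0.49, adjusted p = 0.173). The stretch they covered reached at most 1 base past the element, and 73.8% to 76.7% of these reads were unique.

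Antisense reads varied less than sense reads. Over the 12 libraries antisense reads on RN7SL1 ranged from 106 to 156 CPM while its sense reads ranged from 3913 to 18989. Antisense reads made up 1.31% ± 0.16 of the 7SL counts in Clover, 1.35% ± 0.31 with Z18fl, 1.26% ± 0.24 with Z18trunc and 0.672% ± 0.314 with Z18truncZnFmut (SD, n = 3), where the share was lowest, at 0.405%, in the second library with the most sense reads. Z18truncZnFmut lay below both Clover and Z18trunc without overlap (exact permutation p = 0.1 each, adjusted p = 0.417). RN7SL2 antisense counts (1.48 to 3.54 CPM) rested on 1 to 11 unique counts a library and fell with Z18fl by 0.87 (SE 0.23, edgeR adjusted p = 0.00704), a call lost without the third Z18fl library (-0.60, adjusted p = 0.0632). The copy opposite to an exon of PRKCSH (chr19:11450529-11450606) stood at 1.39 to 2.57 CPM and was not called against Clover. The copy opposite to an exon of the ubiquitin ligase gene DTX3L (chr3:122573547-122573625) fell with Z18fl by 1.49 (SE 0.49, adjusted p = 0.0206), from 0.599, 0.526 and 0.453 to 0.13, 0.218 and 0.272 CPM, a call lost without any 1 Clover library (adjusted p from 0.0516 to 0.0774). Its total counts were 10, 9 and 8 in Clover and 3, 5 and 7 in Z18fl, so it was tested through the Clover libraries alone. Of the fits that left out 1 library, only 3 could test it.

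Per aligned fragment, sense counts on the many low copies were higher than in Clover with each ZC3H18 construct. Together, the copies after the top 10 stood at 11.7, 13.9 and 14.4 CPM in Clover, 21.2, 16.7 and 22.0 with Z18fl, 18.9, 19.6 and 20.8 with Z18trunc and 18.5, 20.1 and 25.1 with Z18truncZnFmut. No group overlapped Clover (exact permutation p = 0.1 each, adjusted p = 0.417), and the log2 ratios were 0.58, 0.57 and 0.67. With the top 10 ranked by unique counts, which by construction moves RN7SL5P into the rest, the first 2 ratios turned to -0.13 and -0.046. Most of this came from copies in introns, at 7.70 to 10.6 CPM in Clover against 13.1 to 17.2 with Z18fl, 13.9 to 15.9 with Z18trunc and 13.4 to 17.2 with Z18truncZnFmut. These introns belong to genes on the strand of the copy, so reads from unspliced host transcripts cannot be told from reads of the copies. The copies in exons and those between genes overlapped Clover (0.779 to 2.16 and 1.65 to 2.52 CPM there). Copies antisense to a gene stood at 0.566 to 0.719 CPM in Clover and at 0.61 to 1.17 with Z18fl, which overlapped, and at 0.926 to 1.36 with Z18trunc and 0.799 to 1.88 with Z18truncZnFmut, which did not. Relative to all repeat counts, however, each group overlapped Clover, with means of 229 ± 35.8 per 1000000 repeat counts in Clover, 280 ± 26.5 with Z18fl, 256 ± 7.19 with Z18trunc and 214 ± 25 with Z18truncZnFmut, with log2 ratios of 0.29, 0.16 and -0.10. The total of repeat counts moved with their level, and its part in the result was not tested. The top 10 copies held 99.7% to 99.9% of the 7SL sense counts in every library.

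**Figure D5:**
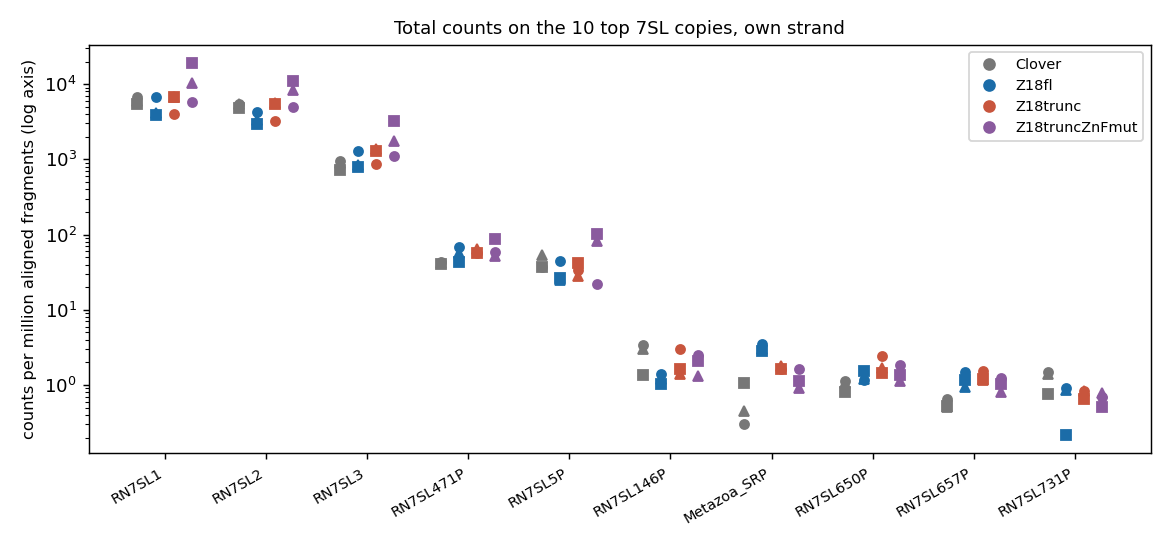
Total counts in CPM (log axis) on the own strand of each of the 10 most abundant 7SL copies, 1 marker per library, coloured by construct and shaped by replicate. RN7SL1 and RN7SL2 lie between 2971 and 18989 in all libraries, RN7SL3 between 727 and 3232, RN7SL471P and RN7SL5P between 22.0 and 102, and the other 5 at or below 3.54.

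Other RNAs of the same kinds were summed for comparison, class by class, and their counts are to be read beside the shares over all names given above, 15.5% higher and 15.8% lower with Z18fl and 10.0% and 8.03% with Z18trunc. In classes of a few names a count of 0 is near those shares. With Z18fl against Clover 7SK rose by 0.29 (SE 0.05, edgeR adjusted p = 0.000855), 7SL fell, and 0 of 4 scRNA names (BC200 and the Y RNAs, also made by RNA polymerase III) passed. Of 11 snRNA names 2 rose and 5 fell, of 4 tRNA names 2 fell, and 0 of 2 rRNA names passed. Among the descendants of 7SL, 15 of 17 AluS names fell (median -0.25), 2 of 4 AluJ, and 6 of 23 AluY with 1 rising, and 0 of 4 Alu monomers (FAM, FLAM and FRAM, the forms nearest to 7SL) passed, with a median of 0.01. With Z18trunc 7SK stood at 0.13 (adjusted p = 0.328), 1 of 17 AluS names fell, and 0 AluJ, AluY, monomer and scRNA names passed. 2 of 11 snRNA names rose and 4 fell, and 1 of 5 tRNA names and 1 of 2 rRNA names fell. With Z18truncZnFmut 0 names of these classes passed in either direction in edgeR, 7SK standing at 0.50. In CPM, Alu counts were higher than in Clover with all 3 constructs, at 16426 to 18192 in Clover and 18568 to 27065 in the others, so the falls of Alu names are relative to other repeats.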

How the data were processed

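The authors trimmed the reads with cutadapt 4.6, per the processing notes, aligned them to hg38 and counted them per repeat element and read strand with SQuIRE, whose version is not given in the sources used here. 1 table per library was deposited, listing elements with a count. The deposited estimated counts (total) are unique reads plus the part of each multimapping read that SQuIRE's expectation-maximization step gave to an element, so they depend on how that step divides reads between near-identical copies. The deposited counts of unique reads and of aligned fragments are whole numbers. The deposited FPKM values and the deposited percent column, SQuIRE's score, were used only in checks of the tables. That score equalled the total count of an element as a percent of the reads on it, to within 0.5 points.

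Levels are counts per 1000000 aligned fragments (CPM). Total counts were rounded and fitted with edgeR 4.0.16 (R 4.3.3; quasi-likelihood test, TMM, filterByExpr with a minimum count of 10 and total of 15) on the 6 libraries of each comparison over all repeats, with Benjamini-Hochberg adjustment and a threshold of 0.05. Sums over each repeat name and strand were fitted likewise. The scripts were tested on simulated counts. Values with 1 number a library went through exact permutation tests (two-sided). Nothing says that libraries came from separate cultures, so p-values measure the spread between these libraries, which may be technical. The alternatives were DESeq2 1.42.0, aligned fragments as library sizes, no filter, unique reads, own-strand reads, all 12 libraries in a single fit, the replicate number as a block, and each library left out. In Z18truncZnFmut and Z18trunc, libraries of the same replicate number deviated together from their group means (r = 0.55, 0.31 and 0.71 over 1468 repeat names and strands). Replicates 1 and 2 also did so crosswise (r = 0.40 and 0.34), while replicate 3 against 1 or 2 gave -0.69 to -0.43. These values set replicate 3 apart in both groups and do not settle whether the numbers pair. Gene positions are those of GENCODE release 44, and alignments to RN7SL1 were made with Biopython 1.88. Named copies were the 10 with the highest mean level, the genes, and up to 3 called per direction and comparison, with the highest antisense and unique copies. The members and lists were chosen with earlier results of these data known. The sequences of the elements themselves are not reported here.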

Additional observations from a re-analysis of the deposited data

How the results depend on the processing

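TMM levels the bulk of the repeats, and with aligned fragments as library sizes the median over all elements moved from 0.04 to 0.23 (Z18fl against Clover), from -0.01 to 0.18 (Z18trunc), from -0.03 to 0.07 (Z18truncZnFmut), from 0.01 to 0.06 (Z18trunc against Z18fl) and from 0.02 to -0.12 (Z18truncZnFmut against Z18trunc), all log2. These are medians over single elements. The median over repeat names, whose fits gave the sums, moved from 0.01 to 0.44 (Z18fl against Clover) and from 0.04 to 0.48 (Z18trunc). It moved from 0.05 to 1.03 with Z18truncZnFmut and from 0.01 to 0.07 in Z18trunc against Z18fl. In Z18truncZnFmut against Z18trunc it moved from 0.01 to 0.50, opposite in direction to the median over elements. For single copies called in the main fits, directions never reversed, but over all alternatives a call was lost 72 times and kept 158 times. Copies not called there were not followed in this way. Depth limits the copies of low level, which have few counts a library. Intervals of counting error were not used, since multimapping reads are divided by estimate. The cause of each change below was not tested.

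With aligned fragments as library sizes, 4 members were higher with Z18fl, 6 with Z18trunc and 2 with Z18truncZnFmut, and 0 lower with Z18trunc, whose sums were -0.041 (sense) and -0.14 (antisense). Without a filter 2 were lower with Z18fl, 0 lower with Z18trunc, 0 higher with Z18truncZnFmut and 1 lower in Z18trunc against Z18fl. With unique reads 4 were higher and 5 lower with Z18fl, 4 higher with Z18truncZnFmut and 3 higher in Z18truncZnFmut against Z18trunc. Own-strand reads gave 4 lower with Z18trunc. DESeq2 gave 1 lower with Z18truncZnFmut and 1 lower in Z18trunc against Z18fl. In a single fit of 12 libraries 4 were higher with Z18fl, 1 lower with Z18truncZnFmut and 0 lower in Z18trunc against Z18fl, and the sums did not pass with Z18fl (-0.76 sense, -0.77 antisense) or Z18trunc (-0.50, -0.58). At an unadjusted p under 0.05, 5 were higher and 6 lower with Z18trunc, 3 and 2 with Z18truncZnFmut, 2 higher in Z18trunc against Z18fl, and 4 higher and 2 lower in Z18truncZnFmut against Z18trunc.

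With the replicate number as a block, 0 were lower with Z18trunc and 0 higher with Z18truncZnFmut, whose sense sum turned to -0.094. The numbers do not pair libraries with Clover or between Z18trunc and Z18fl (r from -0.30 to 0.05 for equal numbers). In Z18truncZnFmut against Z18trunc equal numbers deviated together, but so did replicates 1 and 2 crosswise (r = 0.40 and 0.34). There 0 members were called with or without the block, so it had no call to change.

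Some log2 ratios of levels turned. Relative to repeat counts, unique 7SL with Z18trunc was at -0.40, and the copies after the top 10 at -0.10 (Z18truncZnFmut against Clover) and -0.26 (against Z18trunc). With the top copies ranked by unique reads, which by construction moves RN7SL5P into the rest, the rest was at -0.13 with Z18fl, -0.046 with Z18trunc and 0.088 in Z18trunc against Z18fl, and the top-10 share with Z18truncZnFmut at 0.0531 percentage points. On both strands the rest was at 0.056 in Z18trunc against Z18fl. With unique reads the antisense share with Z18fl was at -0.107 points.

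Leaving out each library in turn gave 2 to 4 members higher and 4 to 10 lower with Z18fl, 0 to 3 and 0 to 3 with Z18trunc, 0 to 5 higher with Z18truncZnFmut, 0 to 1 higher and 0 to 2 lower in Z18trunc against Z18fl, and 0 to 4 higher in Z18truncZnFmut against Z18trunc. The sense sum ranged from -0.69 to -0.37 with Z18trunc, -0.61 to 0.57 with Z18truncZnFmut and -0.056 to 1.09 in Z18truncZnFmut against Z18trunc, and the antisense sum from -1.22 to -0.63 with Z18truncZnFmut. In log2, total 7SL and the top 10 copies with Z18trunc each ranged from -0.16 to 0.17 and unique 7SL from -0.12 to 0.25. The rest ranged from -0.13 to 0.060 in Z18trunc against Z18fl and -0.035 to 0.19 in Z18truncZnFmut against Z18trunc, 7SL over 7SK from -0.034 to 0.46 in the latter, and 7SL over Alu from -0.12 to 0.64 in Z18truncZnFmut against Clover. In percentage points, the antisense share ranged from -0.102 to 0.207 with Z18fl, -0.186 to 0.0453 with Z18trunc and -0.256 to 0.0537 in Z18trunc against Z18fl, the top-10 share from -0.028 to 0.0193 with Z18truncZnFmut, and the unique share from -0.436 to 5.78 with Z18truncZnFmut and -2.51 to 3.71 against Z18trunc.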
